A study of Mus musculus with 6 samples.

Results

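The genes described here are 10 ephrins and Eph receptors of the mouse, namely the A-class ligands Efna1 and Efna5, the B-class ligands Efnb1 and Efnb2, the A-class receptors Epha2, Epha3 and Epha7, and the B-class receptors Ephb2, Ephb3 and Ephb4. They were taken by gene symbol from a deposited table of 29018 genes, and each symbol had a single row. RNA sequencing was done on osteoblasts, which form bone, from the calvaria (the roof of the skull) of neonatal mice after a period of osteogenic culture. The mice were wild type (WT) or NDR1 knockout (KO), NDR1 being a protein kinase related to LATS and encoded by Stk38, and each genotype had 3 libraries of polyadenylated RNA. The comparison made here is of the KO with the WT libraries. Strain, sex, litter, the design of the allele and whether the libraries came from separate animals were not given in the sources used here, so p-values reflect variation among these libraries alone, and that variation may be technical.

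Eph receptors form the largest family of receptor tyrosine kinases, and their ligands, the ephrins, stay on the surface of the neighbouring cell. A-class ephrins are held by a lipid anchor and B-class ephrins span the membrane and carry a short cytoplasmic tail, so binding can signal into both cells, forward through the receptor and in reverse through the ligand. In bone, ephrin-B2 on osteoclasts and EphB4 on osteoblasts are a known pair that acts in both directions, and loss of ephrin-B1 in humans disturbs the cranial sutures.

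In KO cultures the mRNA of all 3 B-class receptors among the genes, of the A-class receptor Epha3 and of the ligand Efnb2 was lower, and that of the A-class receptor Epha2 was higher. The falls left 58.9% of the WT level for Epha3, 65.7% for Ephb3, 75.5% for Efnb2, 79.0% for Ephb2 and 86.1% for Ephb4, and Epha2 stood at 135% of WT. Efna1, Efna5, Efnb1 and Epha7 did not pass the test. No gene of the 10 changed 2-fold. A gene passed, or was called, when its adjusted p was under 0.05 in the quasi-likelihood test of edgeR on the counts (two-sided, Benjamini-Hochberg over the 18221 genes tested), written below as the edgeR adjusted p. By that rule 5 of the 10 genes were lower and 1 higher, against a background of 11.7% of all tested genes lower and 11.2% higher, or 22.9% called in all. The 10 genes were chosen with earlier results of these data known, so this contrast is a description and not a test. The background also covers genes of every level that passed the filter. The median log2 change was -0.23 over the 10 genes and 0.00 over all genes tested. All 10 passed the filter on low counts, with 753 to 8901 counts per gene and library.

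The stretches of DNA before the start sites of the 4 genes with the largest changes are shown because these genes moved in opposite directions. Each is the 250 bases upstream of the RefSeq start in build GRCm38.p6, read 5′ to 3′ on the strand of the gene. Capitals mark matches to 4 short motifs searched on both strands, with no overlap between matches in these windows. The motifs were CTTTGA (TCF/LEF, the factors of Wnt signalling), TGGGAA (RBPJ, the factor of Notch signalling), GGAATG (TEAD, the partner of YAP and TAZ) and TGANTCA (AP-1).
Epha3, chr16:63864176-63864425, minus strand: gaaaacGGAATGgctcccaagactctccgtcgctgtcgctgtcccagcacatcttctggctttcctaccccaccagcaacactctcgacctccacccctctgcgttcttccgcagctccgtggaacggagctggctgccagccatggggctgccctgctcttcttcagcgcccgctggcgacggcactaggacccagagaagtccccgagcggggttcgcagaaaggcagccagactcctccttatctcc
Ephb3, chr16:21204545-21204794, plus strand: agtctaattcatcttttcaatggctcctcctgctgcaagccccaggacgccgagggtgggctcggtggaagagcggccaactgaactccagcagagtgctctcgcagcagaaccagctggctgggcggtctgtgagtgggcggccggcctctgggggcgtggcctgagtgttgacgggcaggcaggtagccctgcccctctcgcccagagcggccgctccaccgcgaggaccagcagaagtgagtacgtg
Efnb2, chr8:8661243-8661492, minus strand: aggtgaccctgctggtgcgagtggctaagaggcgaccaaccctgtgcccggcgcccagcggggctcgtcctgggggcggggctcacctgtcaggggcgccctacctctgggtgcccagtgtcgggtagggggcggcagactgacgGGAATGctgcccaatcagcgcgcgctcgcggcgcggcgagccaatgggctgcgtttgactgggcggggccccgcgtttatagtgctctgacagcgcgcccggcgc
Epha2, chr4:141300971-141301220, plus strand: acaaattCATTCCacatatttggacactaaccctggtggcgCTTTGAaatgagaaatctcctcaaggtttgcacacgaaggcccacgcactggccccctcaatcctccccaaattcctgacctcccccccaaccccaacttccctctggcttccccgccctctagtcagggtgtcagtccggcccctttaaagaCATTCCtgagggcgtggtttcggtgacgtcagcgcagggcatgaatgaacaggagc

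The window of Epha2, the gene that rose, held 2 TEAD matches and 1 TCF/LEF match, but the bases that follow this RefSeq start were not found in a GENCODE M21 transcript of the same strand, unlike those of Epha3, Ephb3 and Efnb2. Those of Epha3 and Efnb2, which fell, held 1 TEAD match each, and that of Ephb3 held no match to the 4 motifs. All 10 genes had a RefSeq window, 12 windows in all because Efna1 and Epha7 have 2 starts each. Of these 12 windows, 3 held the TEAD letters, 1 the TCF/LEF letters, 3 the RBPJ letters and 0 the AP-1 letters, compared with 12.6%, 13.8%, 21.6% and 6.75% of the 32851 windows of all genes. The 2 windows of Epha7 overlap and share a match. The window of Epha2 was 55.6% G and C, and those of Epha3, Ephb3 and Efnb2 were 62.8%, 65.6% and 72.0%, against a median of 52.4% over all windows. A match is a stretch of letters and not a measured binding site.

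The library totals ran from 61461870 to 76159034 counts. Levels of 1 gene in different libraries are in CPM, which edgeR scales to equal library size by its TMM method, with the mean ± SD of 3 libraries, and levels of different genes as FPKM, which also divides by transcript length. The targeted gene Stk38 stood at 50.3, 47.9 and 52.5 CPM in KO replicates 1 to 3 and at 73.1, 77.4 and 79.4 CPM in WT, so it was lower but still read. Of 10 osteoblast markers all were detected, 5 lower and 1 higher in KO, among them Runx2, the master regulator of the lineage, at 74.8 to 83.8 CPM in KO and 87.5 to 94.4 CPM in WT. Bglap was barely read, at 12 to 71 counts per library, and was not called (log2 change -0.90). Sp7, Dlx5 and Ibsp were not called either (log2 changes 0.15, 0.07 and 0.39). Alpl, the alkaline phosphatase of mineralizing osteoblasts, was lower at 42.7 ± 3.42 against 97.0 ± 2.27 CPM, and Spp1, which encodes osteopontin, was the 1 that was higher, at 1730 ± 158 against 658 ± 52.1 CPM. Markers of other cells moved with genotype. Of 12 macrophage markers 10 were higher and none lower, with a summed level of 316 to 345 CPM in KO and 115 to 151 CPM in WT. Of 8 tested endothelial markers 3 were lower (Erg, Tek and Cdh5), with a sum of 11.6 to 13.5 CPM in KO and 23.3 to 24.7 CPM in WT, while the defining genes Pecam1 and Kdr stayed under 1 CPM in every library and Sox17 had at most 1 count per library. Of 8 tested osteoclast markers 3 were lower (Mmp9, Ctsk and Itgb3), with a sum of 293 to 302 CPM in KO and 530 to 533 CPM in WT. Most of that sum was Ctsk (218 ± 3.77 in KO against 298 ± 6.35 CPM in WT) and Mmp9 (3.72 ± 0.593 against 144 ± 7.76 CPM). Acp5, Nfatc1, Oscar, Atp6v0d2 and Ocstamp were not called (log2 changes 0.07, 0.08, 0.40, 0.72 and -1.79). Ocstamp had at most 23 counts per library, and Dcstamp and Calcr were absent from the deposited data. Of 7 tested neuronal and Schwann cell markers 4 were higher and none lower, with a sum of 75.8 to 83.0 CPM in KO and 43.3 to 52.8 CPM in WT. The full list held 10 markers, and Rbfox3 among them had at most 3 counts in any library. Of 6 tested muscle markers 2 were lower, and the epithelial markers summed to under 1 CPM in every library. The part of these cells in the ephrin and Eph values was not tested, and in bulk cultures fewer cells of a type and less RNA per cell cannot be told apart.

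The 10 genes covered a wide range of levels per length. In WT, Efnb1 was the most abundant at 28.2 ± 0.459 FPKM, followed by Ephb4 at 23.8 ± 0.286, Efnb2 at 17.2 ± 0.301, Ephb3 at 13.3 ± 0.853, Efna5 at 11.97 ± 0.214 and Epha3 at 10.6 ± 0.0832 FPKM. Below them stood Ephb2 at 9.28 ± 0.244, Epha2 at 7.67 ± 0.209, Efna1 at 6.61 ± 0.604 and Epha7 at 1.33 ± 0.214 FPKM. No neighbours in this WT order overlapped between libraries. Among all tested genes ranked by WT FPKM, Efnb1 and Ephb4 lay at the 92.0th and 90.4th percentiles and Epha7 at the 37.9th. In KO the first 3 places were the same, but Epha2 moved from the eighth place to the fifth at 10.7 ± 0.401 FPKM, Ephb3 from the fourth to the sixth at 9.06 ± 0.0895 FPKM, and Epha3 from the sixth to the eighth at 6.45 ± 0.211 FPKM. In KO, Efna5 and Epha2 overlapped between libraries, as did Epha3 and Efna1, and the other neighbours did not.

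**Figure D1:**
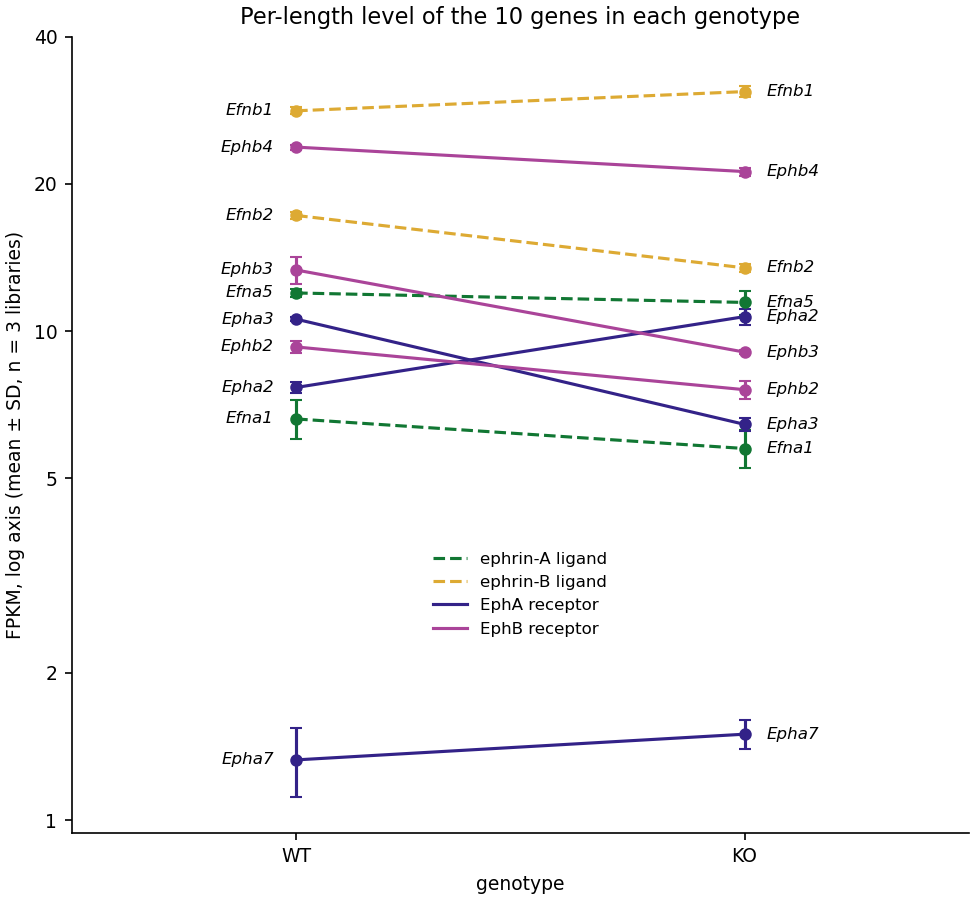
Level of each of the 10 genes in WT and KO as FPKM on a log axis (points are means of 3 libraries, bars are SD, dashed lines are ligands and full lines receptors). The lines of Epha2 and Epha3 cross, from 7.67 to 10.7 FPKM and from 10.6 to 6.45 FPKM.

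Among the ligands, Efnb2 was lower in KO and the other 3 were not called. Efnb2 (chromosome 8, 8667434 to 8711242, as deposited, in a mouse build that was not given) encodes ephrin-B2, the main ligand of EphB4. It stood at 94.7, 97.8 and 96.7 CPM in KO replicates 1 to 3 and at 130.4, 125.9 and 126.7 CPM in WT. All 3 KO libraries lay below all 3 WT libraries, and the gap between the groups was several times the spread within either. The log2 change of Efnb2 was -0.41 ± 0.03 (SE, edgeR adjusted p = 5.95e-06). The upstream window shown above belongs to this gene.

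Efnb1 (chromosome X, 98179736 to 98192597), which encodes ephrin-B1, the ligand linked to the cranial sutures, stood at 108.6, 109.8 and 115.7 CPM in KO and 103.6, 106.7 and 105.4 CPM in WT. The KO libraries all lay above the WT libraries, with a gap between the groups smaller than the range of the KO libraries. The log2 change was 0.08 ± 0.03 with a 95% interval of 0.01 to 0.16, and it did not pass (edgeR adjusted p = 0.124). Its call turned on scaling, since it passed on library totals without TMM (log2 change 0.13, edgeR adjusted p = 0.0151) and by limma on log2(FPKM + 1) (0.13, limma adjusted p = 0.0181). Its adjusted p ran from 0.0151 to 0.375 over 14 alternatives. KO and WT libraries did not overlap for 38.2% of all genes tested and for 7 of these 10, the 6 called genes and Efnb1.

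The A-class ligands overlapped between genotypes. Efna5 (chromosome 17, 62911179 to 63188312), which encodes ephrin-A5, a guidance cue for growing axons, stood at 46.1, 46.9 and 51.7 CPM in KO and 51.6, 51.6 and 53.2 CPM in WT. KO replicate 3 lay within the WT range and the other KO libraries below it. Efna5 was not called, at a log2 change of -0.11 ± 0.05 (edgeR adjusted p = 0.160), but it passed without KO replicate 3 (log2 change -0.17, adjusted p = 0.0354, against up to 0.490 over the 14 alternatives). Efna1 (chromosome 3, 89179040 to 89188449), which encodes ephrin-A1, a ligand of EphA2, stood at 10.8, 12.01 and 10.2 CPM in KO and 13.3, 14.1 and 11.8 CPM in WT. KO replicate 2 lay above WT replicate 3, so the groups overlapped, and the log2 change of -0.25 ± 0.10, with a 95% interval of -0.46 to -0.04, did not pass (edgeR adjusted p = 0.0914).

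**Figure D2:**
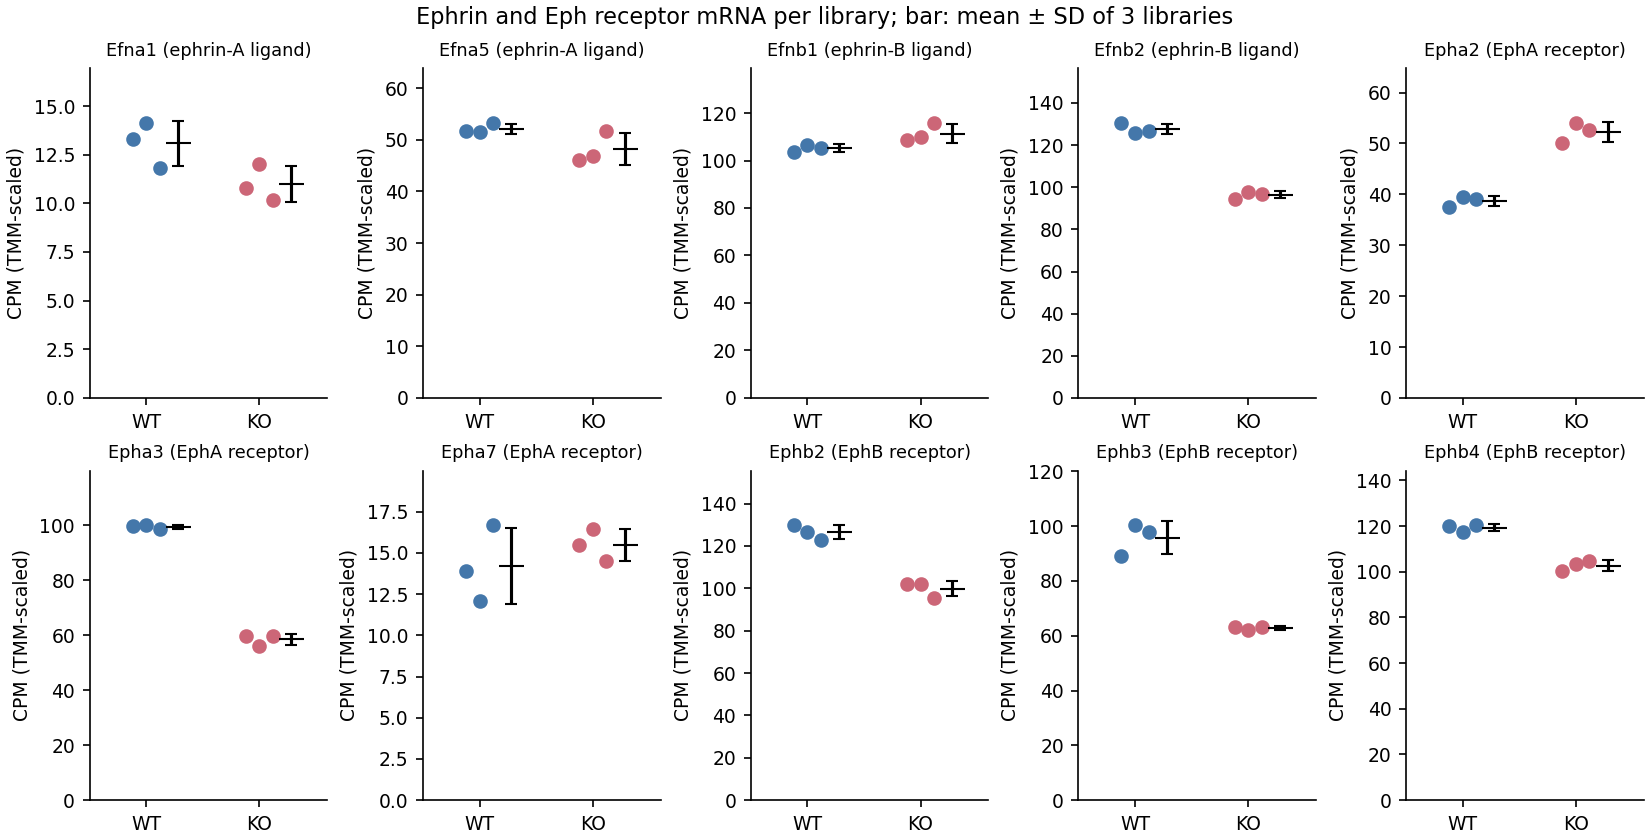
CPM of the 10 genes in each of the 6 libraries (y axes start at 0 and differ between panels, points are libraries, black bars are mean ± SD of 3 libraries). The 3 KO points lie apart from the 3 WT points for Efnb2, Epha2, Epha3, Ephb2, Ephb3 and Ephb4, narrowly so for Efnb1, and overlap for Efna1, Efna5 and Epha7.

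The A-class receptors went in different directions. Epha3 (chromosome 16, 63363897 to 63684538), a receptor for ephrin-A5 in guidance of axons and in the developing heart, had the largest change of the 10 genes. It stood at 59.8, 56.1 and 59.7 CPM in KO and at 99.6, 99.9 and 98.6 CPM in WT. The WT libraries varied by 0.726% (coefficient of variation) and every KO library lay far below them. The log2 change was -0.76 ± 0.04 (edgeR adjusted p = 2.37e-07). A change of at least this size, in either direction, was found in 26.9% of all called genes.

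Epha2 (chromosome 4, 141028551 to 141056695), the receptor that ephrin-A1 binds and a gene also active in epithelia and tumours, stood at 50.2, 54.0 and 52.6 CPM in KO and 37.6, 39.5 and 39.0 CPM in WT. Each KO library lay above each WT library. The log2 change was 0.43 ± 0.05 (edgeR adjusted p = 8.85e-05), the only rise among the 10 genes that passed. Epha7 (chromosome 4, 28813131 to 28967499), known chiefly from the developing brain, was the least abundant of the 10. It stood at 15.5, 16.5 and 14.5 CPM in KO and 13.9, 12.1 and 16.7 CPM in WT. WT replicate 3 was the highest of the 6 libraries and WT replicate 2 the lowest, a coefficient of variation of 16.1% in WT. The log2 change of 0.12 ± 0.11, with a 95% interval of -0.12 to 0.37, did not pass (edgeR adjusted p = 0.501).

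The B-class receptors Ephb2, Ephb3 and Ephb4 were all lower in KO, by unequal amounts. Ephb3 (chromosome 16, 21023505 to 21042054), which shares ligands and many roles with Ephb2, stood at 63.3, 62.0 and 63.2 CPM in KO and 88.9, 100.2 and 98.0 CPM in WT. The KO libraries were nearly level, while WT replicate 1 lay below the other WT libraries but well above KO. The log2 change was -0.61 ± 0.05 (edgeR adjusted p = 6.21e-06). Ephb2 (chromosome 4, 136374850 to 136563299), a receptor for ephrin-B1 and ephrin-B2, stood at 102.2, 101.9 and 95.6 CPM in KO and 129.7, 126.7 and 123.0 CPM in WT. The groups did not overlap, and the log2 change was -0.34 ± 0.04 (edgeR adjusted p = 7.85e-05).

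Ephb4 (chromosome 5, 137348371 to 137376931), the receptor through which ephrin-B2 acts on osteoblasts, stood at 100.2, 103.4 and 104.5 CPM in KO and 120.0, 117.4 and 120.3 CPM in WT. The groups did not overlap, although the difference was the smallest of the 6 called genes. The log2 change was -0.22 ± 0.03 (edgeR adjusted p = 5.89e-04), which left 82.1% to 90.4% of the WT level within the 95% interval. Ephb4 and Efnb2 are also known from venous and arterial endothelium. As given above, 3 of 8 tested endothelial markers were lower and 5 were not called. The part of endothelial cells in the values of Ephb4 and Efnb2 was not tested.

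Ratios between genes of a library, taken from FPKM, do not depend on the scaling between libraries. Efnb2 stood at 0.640, 0.640 and 0.626 times Ephb4 in KO replicates 1 to 3 and at 0.736, 0.726 and 0.713 times in WT. The ligand was thus lower relative to its receptor in each KO library than in any WT library, and the mean log2 ratio differed by -0.19 (KO minus WT). Efnb1 stood at 2.28, 2.23 and 2.38 times Efnb2 in KO and 1.58, 1.68 and 1.65 times in WT, a log2 difference of 0.49. Ephb3 stood at 1.18, 1.15 and 1.26 times Ephb2 in KO and 1.301, 1.501 and 1.51 times in WT, a log2 difference of -0.27, and here WT replicate 1 lay close to KO replicate 3. Each of these 3 differences had p = 0.1 in an exact two-sided permutation test, and 0.1 after Benjamini-Hochberg adjustment over the 3, which is the smallest p that 3 against 3 libraries allow and lies above 0.05.

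**Figure D3:**
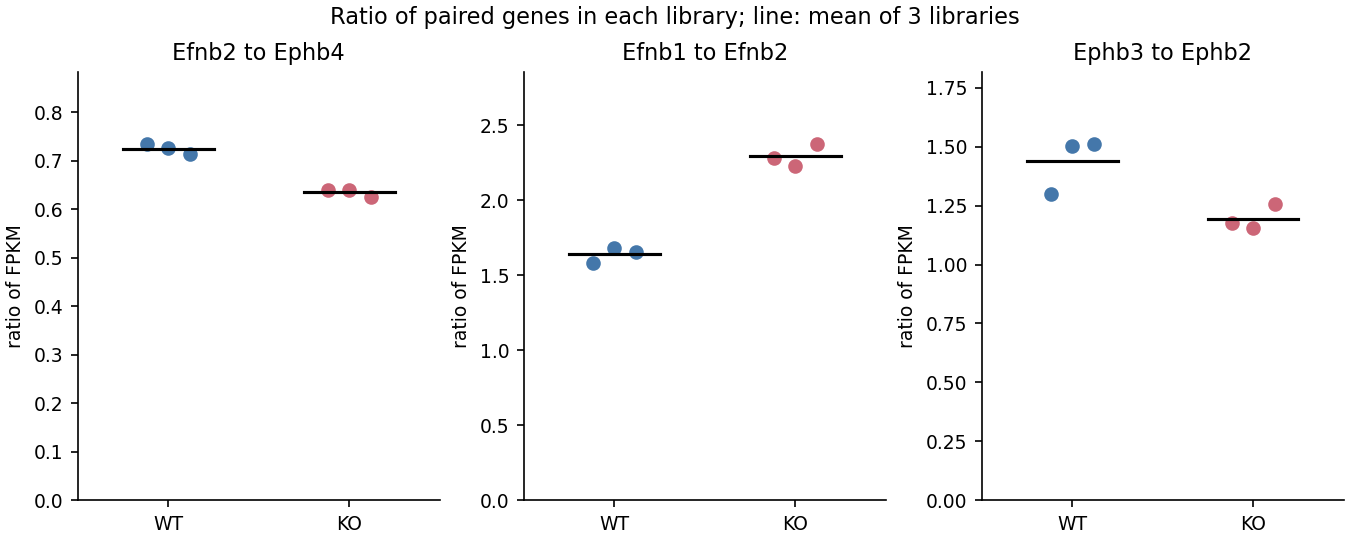
Ratio of FPKM of Efnb2 to Ephb4, Efnb1 to Efnb2 and Ephb3 to Ephb2 in each library (y axes start at 0, points are libraries, lines are means of 3). The KO points lie apart from the WT points in each panel, at 0.626 to 0.640 against 0.713 to 0.736 for Efnb2 to Ephb4.

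The other ephrins and Eph receptors of the mouse, 12 genes, also moved in both directions. Of these, 9 passed the filter, 4 were higher, 3 lower and 2 not called, against the 22.9% of all genes called. Among the ligands Efna3, an ephrin-A3 gene best known from nerve tissue, rose from 3.99 ± 0.718 to 7.39 ± 0.379 CPM (log2 change 0.89 ± 0.15), Efnb3, which encodes the third B-class ligand, fell from 8.14 ± 0.712 to 4.31 ± 0.645 CPM (-0.92 ± 0.14), and Efna2 fell from 12.2 ± 1.03 to 9.67 ± 0.320 CPM (-0.34 ± 0.09). The edgeR adjusted p of Efna2 was 0.0196, and its call was lost without KO replicate 1 or 2 or WT replicate 2 or 3 (edgeR adjusted p = 0.0738, 0.0510, 0.0697 and 0.0796). Among the receptors Epha1 rose from 14.4 ± 0.517 to 25.01 ± 0.842 CPM (0.80 ± 0.06), Epha5 from 7.24 ± 0.412 to 10.2 ± 1.17 CPM (0.49 ± 0.11) and Ephb6, a receptor whose kinase is inactive, from 16.3 ± 0.911 to 20.2 ± 0.734 CPM (0.31 ± 0.07). Epha4, which binds ephrins of both classes, fell from 51.9 ± 0.575 to 39.1 ± 2.14 CPM (-0.41 ± 0.05). The edgeR adjusted p of the other 6 called genes ran from 7.32e-06 for Epha1 to 0.00812 for Epha5. Ephb1 and Efna4 were not called (log2 changes -0.73 ± 0.28 and -0.12 ± 0.08, edgeR adjusted p = 0.0912 and 0.328). Epha6, Epha8 and Epha10 had at most 6 counts in any library and were not tested.

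**Figure D4:**
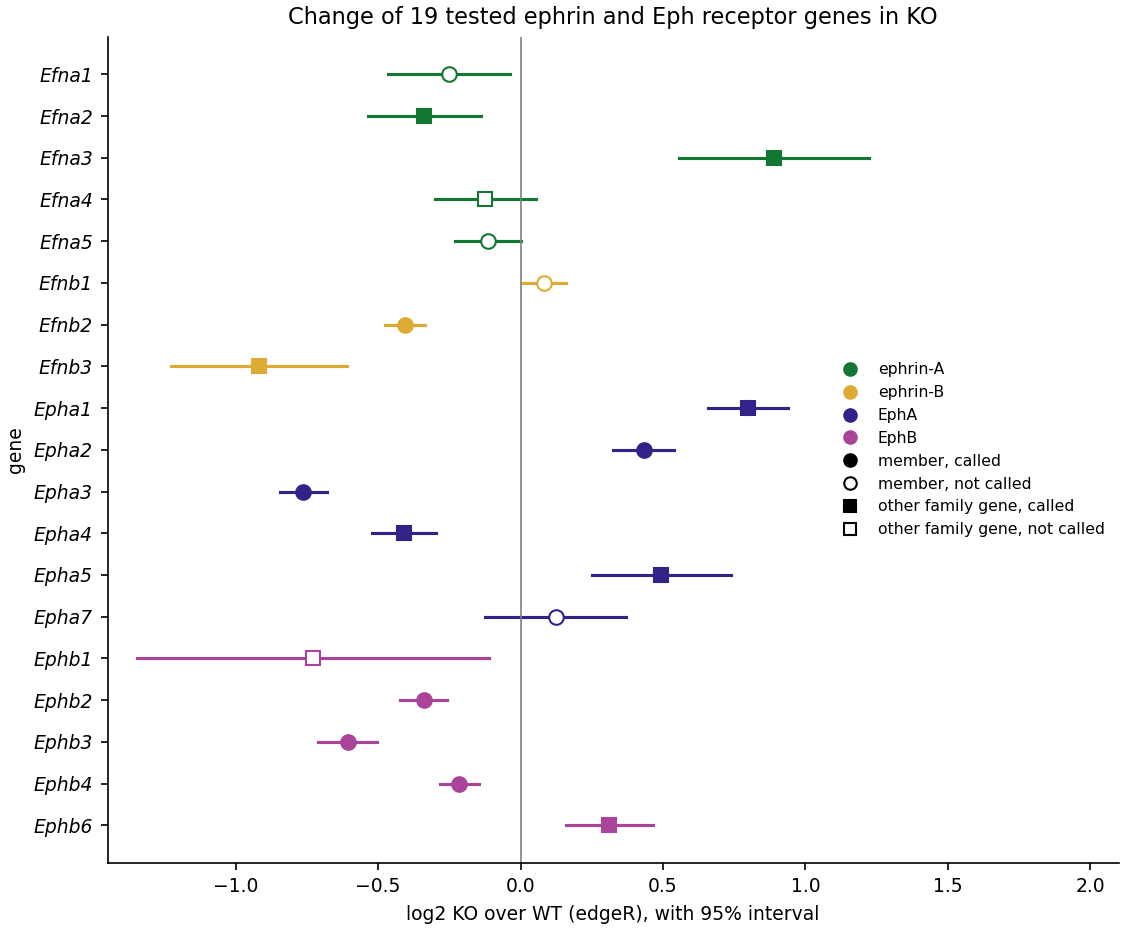
log2 change of the 19 tested ephrin and Eph receptor genes, KO over WT, with 95% intervals from edgeR (circles are the 10 genes described here, squares the other family genes, filled symbols were called). Of the called B-class receptors Ephb2, Ephb3 and Ephb4 lie below 0 and Ephb6 above, and the A-class receptors lie on both sides.

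Summed over the whole family of 22 genes, the B-class receptors held 43.2 ± 0.492 FPKM in KO against 50.7 ± 0.498 in WT, while the A-class receptors held 30.0 ± 0.154 against 29.3 ± 0.221 FPKM. The direction for the A-class receptors turned with the scale, since their summed CPM was 197 to 203 in KO and 224 to 228 in WT. B-class receptors thus made up 59.0 ± 0.343% of receptor FPKM in KO and 63.4 ± 0.149% in WT. The B-class ligands held 45.7 ± 1.06 FPKM in KO against 47.8 ± 0.0569 in WT, and the A-class ligands 32.1 ± 0.215 against 33.5 ± 0.896 FPKM. The sum of B-class ligands over that of B-class receptors was 1.04, 1.04 and 1.09 in KO replicates 1 to 3 and 0.953, 0.934 and 0.943 in WT. These sums are a description of mRNA and were not tested.

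Of 42 tested adaptors, exchange factors, kinases, phosphatases and shedding proteases of ephrin and Eph signalling, 6 were higher and 10 lower, with a median log2 change of -0.04. The background was 11.2% of all tested genes higher and 11.7% lower. The split among the 42 turned with the setting, to 8 higher and 6 lower on library totals without TMM. It was 6 higher and 5 lower with TMM but no count filter, and 5 higher and 4 lower by limma on log2(FPKM + 1). The share called among the 42 was 38.1% in the main test, against 22.9% of all genes, and 33.3% against 24.1% without TMM. Limma on log2(FPKM + 1) without a filter tested all 42 and called 21.4%, against 11.4% of all genes it tested. Limited to genes whose FPKM averaged 1 or more, limma tested 35 of the 42 and called 25.7% of those, against 29.4%. The 42 genes were chosen with earlier results of these data known, so these shares are a description and not a test. The 4 of lowest p included 3 membrane proteases that fell, Mmp14 (from 1046 ± 14.7 to 806 ± 5.18 CPM, log2 change -0.38 ± 0.02), Adam12 (-0.35 ± 0.03) and Adam19 (-0.38 ± 0.04), which cut many proteins of the cell surface. The fourth, Anks1b, which encodes a scaffold protein that can bind Eph receptors, rose from 0.878 ± 0.127 to 3.68 ± 0.240 CPM (2.07 ± 0.20). The edgeR adjusted p of these 4 ran from 5.17e-07 for Mmp14 to 4.55e-05 for Adam19. Adam10, the protease best known to shed ephrins, and the adaptors Nck1 and Nck2 were not called (log2 changes 0.08, -0.07 and -0.15, edgeR adjusted p = 0.0839, 0.434 and 0.170). They were named after their values were seen.

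Replicates of the 10 genes varied by 1.18% to 8.41% in KO and 0.726% to 16.1% in WT (coefficient of variation of CPM), with medians of 3.66% and 2.23%. Counting noise alone would give medians of 1.51% and 1.25%, and at most 3.56% for any of the genes. Over the 6 libraries the genes whose log2 CPM followed Epha3, the gene of lowest p, most closely were Col12a1, Fndc1 and Mkx (Pearson r = 0.9997, 0.9995 and 0.9994, log2 changes -0.50, -2.33 and -0.64). With 2 groups of 3 libraries such an r mainly follows the difference between genotypes, and 1063 genes had r over 0.95 with Epha3.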

How the data were processed

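RNA was measured in 6 libraries of calvarial osteoblasts, 3 KO and 3 WT, grouped by the sample titles. The authors deposited counts per gene (whole numbers, method of counting not given in the sources used here) and FPKM, as named in the file headers. FPKM is by definition scaled to transcript length and library total. The submitters' processing notes name cutadapt 1.9, HISAT2 2.0.4 and StringTie 1.3.4d, without parameters, and list a human build although all identifiers are of mouse. Only 539 of 27342 shared genes (1.97%) had the coordinates of GENCODE M21, so the build of the deposited coordinates was not settled, and coordinates of genes (deposited) and of promoter windows (GRCm38.p6) must not be compared.

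The test was edgeR 4.0.16's quasi-likelihood F test after TMM and filterByExpr, two-sided with Benjamini-Hochberg adjustment, run in R 4.3.3 on all 18221 genes that passed the filter. The SE was obtained by dividing the size of the log2 change by the root of the F statistic. Alternatives were DESeq2 1.42.0, limma 3.58.1 on log2(FPKM + 1) for genes whose FPKM averaged 1 or more, the same with a pseudocount of 0.1 or with no such limit, edgeR with DESeq2 size factors, without TMM, without a filter or with a replicate block, and leaving out each library. Ratios were tested by exact permutation. The edgeR fit was also run on counts simulated from its own means and dispersions, which cannot show how well it suits the real data. The 10 genes and the lists of other family genes, partners and markers were chosen with earlier results of these data known. Named beyond the 10 were every called family gene and the 4 called genes of lowest p among the adaptors, exchange factors, kinases, phosphatases and proteases. Adam10, Nck1, Nck2 and family genes that were not called were named outside this rule, and 1 further list of partners is not reported here. Promoter windows came from RefSeq, and 9 of the 12 opened into a GENCODE M21 transcript of the same strand. The squared difference between libraries of 1 group was 10.6 to 19.9 times that of counting noise (mean chi-square over genes averaging 100 counts or more). Between libraries of different groups it was 118 to 153 times, so no library was a copy of another. These are ratios of variances and not of the coefficients of variation given above. Intervals cover only the variation among these libraries and counting error.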

Additional observations from a re-analysis of the deposited data

How the results depend on the processing

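The 6 called genes kept their call and direction under all 14 alternatives, with log2 changes of -0.78 to -0.64 for Epha3, -0.66 to -0.51 for Ephb3, -0.42 to -0.33 for Efnb2, -0.36 to -0.26 for Ephb2, -0.23 to -0.16 for Ephb4 and 0.41 to 0.48 for Epha2. None of the 10 genes changed sign. The number called was 6 or 7, the seventh being Efnb1 without TMM and in the 3 limma tests on FPKM, or Efna5 without KO replicate 3. Over the 14 alternatives, 11.4% (limma without a filter) to 29.4% (limma on log2(FPKM + 1)) of all genes tested were called. Efna1 and Epha7 were called under none of the 14. Without TMM the median log2 change of all tested genes was 0.05, against 0.00 with it, and 63.0% of calls were higher, against 49.0%. In limma on log2(FPKM + 1) the share was 64.4%, and among the 10 genes 2 of 7 calls were then higher, against 1 of 6. Replicate numbers did not pair the libraries, as same-numbered KO and WT libraries had correlations of -0.09 to 0.00 in their deviations from the group means over 13373 genes. With a replicate block edgeR called 6 of the 10 genes, 7 other family genes and 3888 genes in all, against 6, 7 and 4179. Of the 42 adaptors, kinases and proteases, 16 were called, against 15 with a replicate block and 11 in edgeR without a filter. Leaving out 1 library gave 11 to 13. The 3 limma tests called 9 each, of 42 genes tested without a filter and of 35 in the others. Calls among all genes fell too in edgeR, from 22.9% to 21.3% with a replicate block and to 17.7% to 19.1% without 1 library. Without a filter edgeR called 3468 of 29018 genes. The counts for these 42 genes were added after seeing the data. Epha5 lost its call in limma without a filter (adjusted p = 0.0849), as did Efna2 (0.0660). Counting noise was at most 3.56% for the 10 genes, but Epha6, Epha8 and Epha10 could not be compared.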

Other observations

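Several genes of the family lie near each other on a chromosome. By the deposited coordinates, Efna1, Efna3 and Efna4 follow each other on chromosome 3 with gaps of 32.8 kb and 10.4 kb and no other coding gene of the table between them. Efna3 rose 1.85-fold in KO, while Efna1 and Efna4, on either side, had log2 changes of -0.25 and -0.12 that were not called (edgeR adjusted p = 0.0914 and 0.328). Ephb2, which fell, and Epha8, which was nearly unread, lie 93.4 kb apart on chromosome 4 with the complement genes C1qa, C1qc and C1qb between them, and all 3 of these rose. These complement genes are among the 12 macrophage markers given above, of which 10 were higher. Ephb6 and Epha1, which both rose, lie 738 kb apart on chromosome 6 with 7 coding genes between them, of which 6 were tested, 2 were higher and 1 was lower. These positions were looked up after the changes were known, and no test of position was made.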
